A study of Homo sapiens with 9 samples.

Results

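This account follows 8 long noncoding RNAs (lncRNAs) in TC-32, a human cell line of Ewing sarcoma: EWSAT1, HOTAIR, HOTTIP, MALAT1, NEAT1, GAS5, DANCR and SNHG1. They were taken by gene symbol from the deposited tables, as 8 of the 58381 genes listed. EWSAT1 stands there under the older symbol NCRNA00277 (ENSG00000212766.9) and DANCR under KIAA0114 (ENSG00000226950.6), so both were matched by gene identifier. RNA-seq had been done on 9 libraries in 3 groups of 3. The RFP group carried the pLOC vector with red fluorescent protein, and the ETS1-Low and ETS1-High groups carried pLOC with a synthetic human ETS1 cDNA, at a lower and a higher ETS1 level. The pLOC constructs were delivered by lentivirus, and the cells were selected with puromycin and sorted as single cells. All 3 groups share the TC-32 background and its EWSR1::FLI1 fusion oncogene, and the study's question was what ETS1 regulates while that fusion is present. The series describes the ETS1 cells as single cell clones but gives neither the number of clones behind a group nor whether RFP was a clone, so ETS1 level and clone cannot be told apart.

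LncRNAs are transcripts that act, where a function is known, as RNA rather than as templates for protein. EWSAT1 (Ewing sarcoma associated transcript 1) is induced by EWSR1::FLI1 and represses a subset of fusion targets together with the RNA-binding protein HNRNPK. HOTAIR and HOTTIP are transcribed from the HOXC and HOXA clusters and bind histone-modifying complexes, MALAT1 and NEAT1 are abundant nuclear RNAs of nuclear speckles and paraspeckles, and GAS5, DANCR and SNHG1 carry small nucleolar RNAs (snoRNAs) in their gene bodies.

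ETS factors recognise a GGAA core, and the start regions of EWSAT1, DANCR and SNHG1 are shown for that reason. EWSAT1 rose furthest, and DANCR and SNHG1 had the largest differences between ETS1-Low and ETS1-High among the RNAs with an entry. GAS5 came so close to SNHG1 (log2 fold changes of -0.517 and -0.525) that they cannot be ranked. Each region shown is the RefSeq window of GRCh38.p14 from 250 bases before to 50 bases after the annotated start. It is read 5′ to 3′ on the gene's strand, with GGAA or its reverse complement TTCC in capitals.

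EWSAT1: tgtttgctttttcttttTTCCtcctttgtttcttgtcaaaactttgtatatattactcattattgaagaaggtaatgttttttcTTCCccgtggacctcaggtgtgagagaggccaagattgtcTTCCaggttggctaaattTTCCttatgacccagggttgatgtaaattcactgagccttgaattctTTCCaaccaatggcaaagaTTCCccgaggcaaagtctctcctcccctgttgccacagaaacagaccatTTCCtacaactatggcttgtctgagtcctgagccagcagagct

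DANCR: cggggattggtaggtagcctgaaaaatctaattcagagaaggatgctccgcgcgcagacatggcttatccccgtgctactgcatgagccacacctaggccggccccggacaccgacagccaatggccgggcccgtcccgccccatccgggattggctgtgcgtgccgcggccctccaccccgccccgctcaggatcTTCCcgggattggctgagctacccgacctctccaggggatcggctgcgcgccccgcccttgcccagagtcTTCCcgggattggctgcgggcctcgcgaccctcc

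SNHG1: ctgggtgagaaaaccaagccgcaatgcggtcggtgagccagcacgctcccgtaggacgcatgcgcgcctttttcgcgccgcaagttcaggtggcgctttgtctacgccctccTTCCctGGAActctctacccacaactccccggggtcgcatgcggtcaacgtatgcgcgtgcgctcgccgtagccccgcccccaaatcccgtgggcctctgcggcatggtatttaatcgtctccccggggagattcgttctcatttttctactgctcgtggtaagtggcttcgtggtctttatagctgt

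The EWSAT1 window lies at chr15:69080600-69080899 on the plus strand, inside the longer GENCODE v44 gene span (chr15:69072926-69095820), and holds the core 7 times. The DANCR window (chr4:52712144-52712443, plus strand) and the SNHG1 window (chr11:62855836-62856135, minus strand) hold it 2 times each. The GAS5 window, not printed, holds it 3 times. Of all 35116 RefSeq windows of this length, 95.5% hold GGAA on either strand, with a median of 3 matches. The longer ETS motif CCGGAA occurs in 17.2% of windows and the tandem repeat GGAAGGAA, the kind of element that EWSR1::FLI1 binds, in 3.67%. The 3 windows printed hold neither of these, which says only that the letters are not in these 300 bases. Of the 8 RNAs, 6 had a window. HOTAIR and NEAT1 are named only. Matches to the longer motifs were limited to 1 GGAAGGAA for HOTTIP and 1 CCGGAA in the second of 2 windows for MALAT1.

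Library totals ran from 39484704 to 46654734 expected counts, and replicate libraries differed from each other by more than sampling noise. ETS1 itself, the introduced gene, averaged 2.00 ± 0.17, 10.6 ± 0.30 and 19.1 ± 0.81 CPM (counts scaled to a common library size, SD, n = 3) over the libraries of RFP, ETS1-Low and ETS1-High. These gene counts do not separate the cell's own ETS1 transcripts from the introduced ones. How fully reads of the synthetic cDNA count under ETS1 was not tested. All 8 Ewing sarcoma markers listed were expressed. Their summed level moved with the groups, at 2575 to 2684 CPM in RFP, 3858 to 3923 in ETS1-Low and 3934 to 3944 in ETS1-High. The highest of the 8 was CCND1, at 1548 ± 42 CPM in RFP, 2518 ± 20 in ETS1-Low and 2498 ± 15 in ETS1-High, so the sum follows this gene most. All 8 were called higher in each ETS1 group than in RFP, or 6 and 7 of them with library totals alone (ETS1-High and ETS1-Low). Of all tested genes 37.0% and 37.9% were called higher in ETS1-High and ETS1-Low. Of 12 markers of other cell types, CD3E was at 0 throughout, CDH5, EPCAM and PTPRC stayed under 10 counts, and 5 passed the filter on low counts. The summed level of those 12 also moved with the groups, at 205 to 227 CPM in RFP, 374 to 377 in ETS1-Low and 498 to 532 in ETS1-High, mostly from the collagen gene COL3A1. Of the 5 tested, 5 were called higher in ETS1-High against RFP, and 3 higher and 1 lower in ETS1-Low against RFP. The other collagen gene listed, COL1A1, was lowest in ETS1-Low, at 39.3 ± 3.4, 28.3 ± 1.3 and 50.9 ± 3.1 CPM in the same order. The endothelial marker PECAM1 averaged 1.70 ± 0.12, 3.69 ± 0.23 and 5.16 ± 0.30 CPM. The keratin gene KRT5 had at most 2 counts in an RFP library and 0.857 ± 0.26 and 2.39 ± 0.47 CPM in ETS1-Low and ETS1-High, and the fibroblast marker DCN had at most 1 count in RFP and 2 in ETS1-Low but 0.914 ± 0.19 CPM in ETS1-High. The part of these shifts in the lncRNA results was not tested. In such bulk samples, fewer cells of a type and less RNA per cell cannot be told apart.

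Of the 8 lncRNAs, 7 passed the filter on low counts and were tested. EWSAT1 and NEAT1 rose in both ETS1 groups against RFP and HOTAIR fell in both, while DANCR rose in ETS1-Low and fell in ETS1-High. In ETS1-High against RFP all 7 passed the test, 3 higher and 4 lower, where 74.2% of the 17235 tested genes passed, 37.0% higher and 37.2% lower. For ETS1-Low against RFP 5 of 7 passed, 4 higher and 1 lower, against 74.1% of all genes, 37.9% higher and 36.2% lower. In ETS1-High against ETS1-Low 6 of 7 passed, 1 higher and 5 lower, against 59.2% of all genes, 29.9% higher and 29.3% lower. With 7 RNAs these shares are coarse, and nothing particular to the RNAs is read from them. Both comparisons with RFP rest on the same 3 RFP libraries. The share of higher calls depends on scaling: of all genes called it was 49.8% in ETS1-High against RFP and 51.2% in ETS1-Low against RFP, but 38.4% and 36.8% on the FPKM scale with no filter, and 39.2% in ETS1-Low against RFP when only library totals were used. A change of at least 2-fold was called for 1 of 7 RNAs in each comparison (EWSAT1 against RFP, DANCR between the ETS1 groups), against 21.0%, 20.6% and 9.74% of all genes. The groups did not overlap in CPM for 7, 5 and 5 of 7 RNAs, against 75.5%, 76.0% and 63.2% of all genes.

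**Figure D1:**
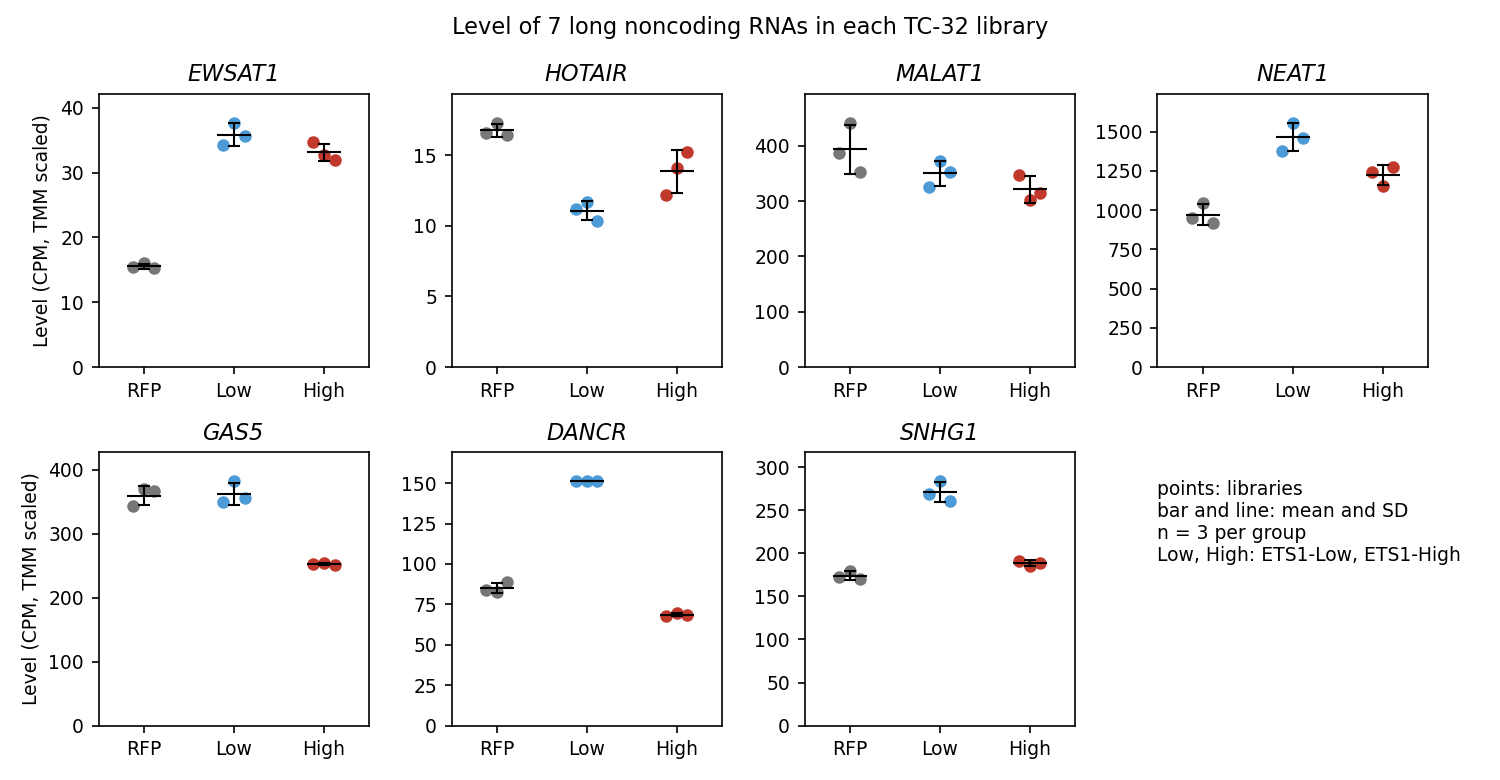
Level of the 7 tested lncRNAs in each library, in CPM scaled by TMM, with points for libraries and the mean and SD of 3 libraries per group (RFP, ETS1-Low, ETS1-High). The EWSAT1 libraries of both ETS1 groups (32.0 to 37.7 CPM) lie above all RFP libraries (15.3 to 16.0 CPM), and DANCR is highest in ETS1-Low.

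EWSAT1, the fusion-induced transcript, had 15.4, 16.0 and 15.3 CPM in RFP replicates 1 to 3. It had 34.2, 37.7 and 35.6 CPM in ETS1-Low and 34.7, 32.7 and 32.0 CPM in ETS1-High. Each of the 6 ETS1 libraries was above each RFP library, and the ETS1-Low and ETS1-High libraries overlapped. The log2 fold change, called log2 change from here on, was 1.09 (SE 0.049, adjusted p 6.50e-26) in ETS1-High against RFP, a 2.12-fold rise. All adjusted p-values come from edgeR's quasi-likelihood test, adjusted by Benjamini-Hochberg over all tested genes. For ETS1-Low the rise was 2.30-fold (log2 change 1.20 (SE 0.048, adjusted p 8.09e-28)). ETS1-High was lower than ETS1-Low by a small margin, with a log2 change of -0.12 (SE 0.045, adjusted p 0.0228), a call that was lost in 8 of 21 alternatives, among them the DESeq2 Wald test (log2 change -0.10, adjusted p 0.156) and the fits without ETS1-Low replicate 2 (-0.077), ETS1-High replicate 2 (-0.11) or ETS1-High replicate 3 (-0.091). ETS1 itself was highest in ETS1-High, and its part in the EWSAT1 levels was not tested.

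Against RFP the genes around EWSAT1 moved less than EWSAT1 in their median. The 15 other tested genes that start within 1 Mb had median log2 changes against RFP of -0.038 (ETS1-High) and 0.31 (ETS1-Low). Between the ETS1 groups their median was -0.52, a larger drop than the -0.12 of EWSAT1 itself. Its nearest tested gene upstream, ANP32A, which encodes an acidic nuclear phosphoprotein, had log2 changes of -0.17 and 0.082, the second of which turned to -0.051 when only library totals were used. On the same strand EWSAT1 shares exon sequence with the unnamed gene ENSG00000259222, which was low at 0.265 ± 0.049, 0.819 ± 0.099 and 0.463 ± 0.12 CPM and rose in both ETS1 groups (log2 change 0.81 (SE 0.34, adjusted p 0.0311) in ETS1-High and 1.62 (SE 0.32, adjusted p 1.02e-05) in ETS1-Low). EWSAT1 counts were not whole in any of the 9 libraries, which RSEM gives where reads are divided among loci. Which loci shared reads with EWSAT1 was not tested. HNRNPK, the known protein partner of EWSAT1 and named here for that reason outside the rule for single genes, had 889.5 ± 32, 957 ± 20.1 and 1049 ± 25 CPM. It rose in ETS1-High (log2 change 0.24 (SE 0.030, adjusted p 1.15e-09)) and, less, in ETS1-Low (0.11 (SE 0.030, adjusted p 0.00176)), where the direction turned with library totals alone (-0.027) and in FPKM (-0.067).

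The genes with the pattern most like EWSAT1 over the 9 libraries were VCL, which encodes the focal adhesion protein vinculin, CENPU, a centromere protein gene, and IGF1R, the receptor for insulin-like growth factors. Likeness was the root mean square difference of centred log2 CPM, which was 0.036 for VCL, 0.043 for CENPU and 0.049 for IGF1R. VCL had 148 ± 4.9, 335 ± 2.3 and 304 ± 11 CPM, in the order RFP, ETS1-Low, ETS1-High. These points share libraries and depth, and the values describe the pattern only.

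**Figure D2:**
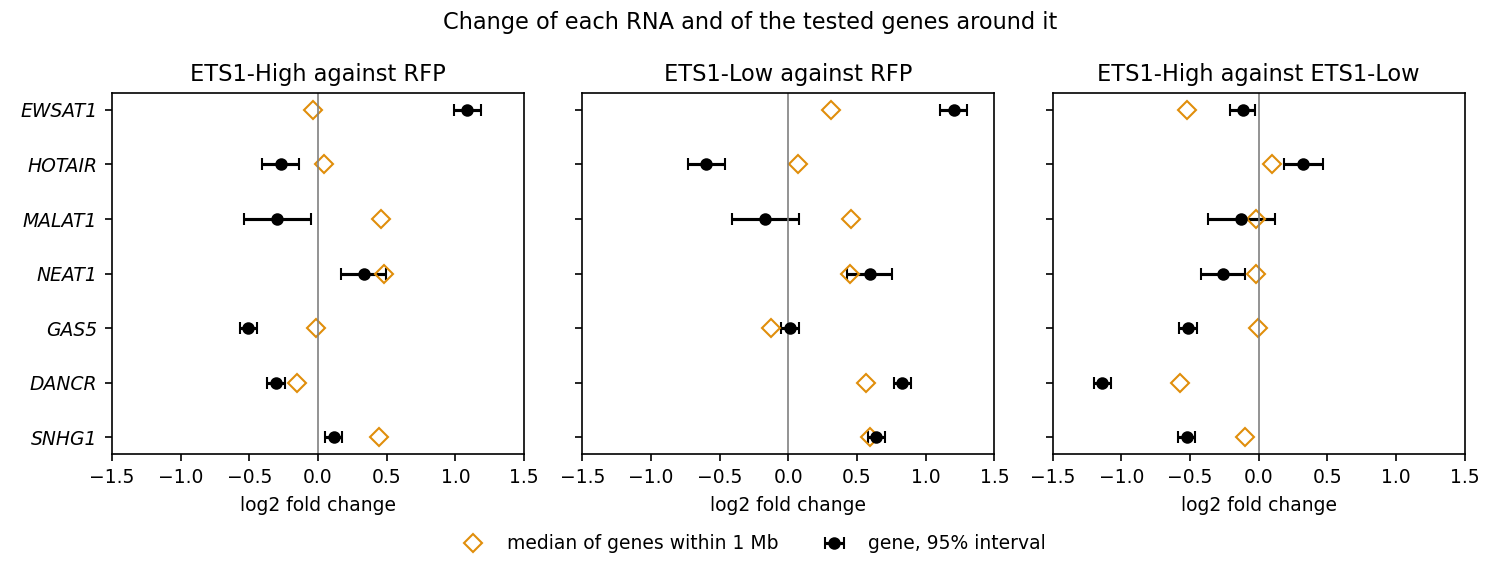
Log2 change of each of the 7 tested lncRNAs (filled points with 95% intervals, edgeR) in the 3 comparisons, beside the median log2 change of the other tested genes within 1 Mb (open diamonds). EWSAT1 stands at 1.09 and 1.20 against RFP, to the right of the genes around it, and the chromosome 11 RNAs MALAT1, NEAT1 and SNHG1 lie in regions whose medians are 0.44 to 0.59 in both comparisons with RFP. The regions of MALAT1 and NEAT1 overlap over most of their length.

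HOTAIR is transcribed antisense from the HOXC cluster (chr12:53962308-53974956, minus strand) and is known to bind Polycomb repressive complex 2 and the LSD1 demethylase. It had 16.5, 17.3 and 16.4 CPM in RFP, 11.2, 11.7 and 10.3 CPM in ETS1-Low and 12.2, 14.1 and 15.2 CPM in ETS1-High. The 3 groups did not overlap, with RFP highest and ETS1-Low lowest. HOTAIR fell against RFP in both ETS1 groups (log2 change -0.27 (SE 0.066, adjusted p 2.67e-04) in ETS1-High; -0.60 (SE 0.068, adjusted p 6.50e-11) in ETS1-Low). ETS1-High stood above ETS1-Low (0.32 (SE 0.070, adjusted p 8.38e-05)), and all 3 calls held in each of the 21 alternatives.

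The HOXC genes, which encode homeodomain transcription factors of posterior patterning, did not move as one. Of the 9 tested, 5 were higher and 2 lower in ETS1-High against RFP, with a median log2 change of 0.25 where the median of all tested genes was -0.0094. Among them 3 were higher and 3 lower in ETS1-Low against RFP (median -0.15), and in ETS1-High against ETS1-Low 5 were higher and 0 lower (median 0.24). The shares of all tested genes, higher and lower, were 37.0% and 37.2%, 37.9% and 36.2%, and 29.9% and 29.3% in the same order. HOXC12, the nearest tested gene on one side of HOTAIR, fell in both ETS1 groups (log2 change -0.15 (SE 0.038, adjusted p 5.48e-04) in ETS1-High; -0.39 (SE 0.039, adjusted p 7.21e-13) in ETS1-Low), at 52.8 ± 1.4, 40.3 ± 0.53 and 47.6 ± 2.3 CPM. HOXC11, the nearest on the other side, rose instead, from 20.0 ± 0.84 CPM (RFP) to 29.6 ± 1.2 CPM (ETS1-High) (log2 change 0.57 (SE 0.049, adjusted p 8.08e-15)). HOXC13 fell most, from 19.8 ± 0.24 to 8.07 ± 0.61 and 7.16 ± 0.046 CPM (log2 change -1.30 in ETS1-Low and -1.47 in ETS1-High). HOXC6 and HOXC4 rose in ETS1-High, by 0.46 and 0.59 on the log2 scale. Over the 52 tested genes within 1 Mb of HOTAIR the median stayed near 0, at 0.042 and 0.070 against RFP.

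Proteins known to bind HOTAIR or HOTTIP, or to belong to their complexes, changed in both directions. Of 13 tested, 6 rose and 6 fell in ETS1-High against RFP, and 7 rose and 5 fell in ETS1-Low against RFP. Of all tested genes 37.0% rose and 37.2% fell in ETS1-High, and 37.9% rose and 36.2% fell in ETS1-Low. Nothing particular to these proteins is read from the counts. JARID2, an accessory subunit of Polycomb repressive complex 2, fell from 91.0 ± 2.2 CPM in RFP to 35.7 ± 1.1 in ETS1-Low and 50.02 ± 0.72 in ETS1-High (log2 change -1.35 and -0.86, adjusted p 1.29e-35 and 4.88e-28). KDM1A, the LSD1 demethylase, fell by less (log2 change -0.32 in ETS1-Low and -0.58 in ETS1-High). EED, a core subunit of the same Polycomb complex, rose by 0.41 in ETS1-High on the log2 scale. WDR5, the adaptor through which HOTTIP recruits MLL methyltransferases, had 153 ± 6.0, 92.3 ± 0.95 and 136 ± 1.6 CPM, lowest in ETS1-Low (log2 change -0.73 (SE 0.032, adjusted p 1.84e-26) against RFP). Of its complex partners, RBBP5 fell in both ETS1 groups (log2 change -0.47 in ETS1-Low and -0.40 in ETS1-High), whereas ASH2L rose in ETS1-Low (0.38) and fell in ETS1-High (-0.14).

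HOTTIP, which lies at the 5′ end of the HOXA cluster (chr7:27198575-27207259, plus strand), had 1 count in RFP replicate 1 and 0 in the other 8 libraries. A library at 0 allows up to 3 counts, or 0.0615 to 0.0793 CPM at these depths, for counting error only. HOTTIP was therefore not tested, and no difference was detectable at this depth. The HOXA genes beside it were also low, with 0 of 11 passing the filter. HOXA10 was the highest of them, at 0.167 ± 0.040 CPM and up to 10 counts in RFP, and at 0 in all 6 ETS1 libraries.

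The genes most like HOTAIR in pattern were the zinc finger gene ZNF440 and KCTD11, with differences of 0.060 and 0.064 on the measure given for EWSAT1.

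MALAT1 (chr11:65497640-65508073, plus strand) is a long nuclear RNA that collects in nuclear speckles with splicing factors. It had 386, 441 and 353 CPM in RFP, 325, 372 and 352 CPM in ETS1-Low and 347, 301 and 314 CPM in ETS1-High. RFP replicate 2 was the highest library. The ETS1-High libraries lay just below the RFP libraries, and the ETS1-Low libraries overlapped both. The log2 change was -0.30 (95% interval -0.54 to -0.051, adjusted p 0.0348) in ETS1-High against RFP, and this call was lost in 8 of 21 alternatives: -0.21 (adjusted p 0.0849) without RFP replicate 2, and also without RFP replicate 1 (-0.31), ETS1-Low replicate 3 (-0.29), ETS1-High replicate 2 (-0.25) or ETS1-High replicate 3 (-0.28). The value was -0.17 (95% interval -0.41 to 0.074, adjusted p 0.173) for ETS1-Low against RFP, which passed in 5 of 21 alternatives, and in ETS1-High against ETS1-Low it was -0.13 (95% interval -0.37 to 0.12, adjusted p 0.338). MALAT1 thus had the widest intervals of the 7 tested RNAs.

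Nuclear speckle proteins, the known neighbours of MALAT1 RNA, changed in both directions: of 10 tested, 4 rose and 5 fell in ETS1-High against RFP, and 5 rose and 4 fell in ETS1-Low against RFP. All tested genes did so as well, with 37.0% higher and 37.2% lower in ETS1-High and 37.9% and 36.2% in ETS1-Low. The splicing factors SRSF3, SRSF7 and SRSF2 rose in ETS1-High by 0.39, 0.35 and 0.28 on the log2 scale. RNPS1, a splicing factor of the exon junction complex, fell (log2 change -0.27 (SE 0.029, adjusted p 9.93e-12)). Between the ETS1 groups SRRM1, a splicing coactivator, was lower in ETS1-High (log2 change -0.29 (SE 0.029, adjusted p 1.46e-12)), and SON, a speckle scaffold, was higher (0.17 (SE 0.031, adjusted p 9.04e-06)). Most like MALAT1 in pattern were the zinc finger gene ZNF714 (difference 0.059) and the unnamed gene ENSG00000279086 (0.066).

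NEAT1 (chr11:65422774-65445540, plus strand) is made as a short and a long isoform from the same start, and the long one is the architectural RNA of paraspeckles. It had 950.1, 1049 and 916 CPM in RFP, 1378, 1557 and 1458 CPM in ETS1-Low and 1242, 1153 and 1277 CPM in ETS1-High. The 3 groups did not overlap, with ETS1-Low highest and RFP lowest. NEAT1 rose against RFP in both ETS1 groups (log2 change 0.33 (SE 0.069, adjusted p 0.00307) in ETS1-High; 0.59 (SE 0.069, adjusted p 1.15e-04) in ETS1-Low), and ETS1-High was below ETS1-Low (-0.26 (SE 0.069, adjusted p 0.0138)). All 3 calls held in each of the 21 alternatives.

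By FPKM (fragments scaled to library size and transcript length, so a level per length) the rise of NEAT1 was larger. It had 256, 291 and 267 FPKM in RFP, 511, 575 and 549 in ETS1-Low and 448, 417 and 475 in ETS1-High. The log2 ratio of the FPKM means was 1.01 in ETS1-Low and 0.72 in ETS1-High, where the counts gave 0.59 and 0.33.

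The length that turns the NEAT1 counts of a library into its FPKM can be computed from both tables, and it weights the isoforms as the authors' quantification assigned them. This implied length was 3883, 3841 and 3619.7 bases in RFP, 2581, 2608 and 2569 bases in ETS1-Low and 2735, 2691 and 2650.3 bases in ETS1-High. All 6 ETS1 libraries were below all 3 RFP libraries. The mean was 0.684 of the RFP mean in ETS1-Low and 0.712 in ETS1-High. Of 13092 genes with a mean of at least 1 FPKM, 0.519% and 0.603% moved as far in either direction, and 22.4% and 22.9% had implied lengths that did not overlap between the groups compared. Between the ETS1 groups the implied length of NEAT1 did not overlap either, as for 23.1% of all genes. The implied length of the 6 other tested RNAs moved by less than 7% of the second group's mean in every comparison. The annotated NEAT1 transcripts in GENCODE v44 run from 512 to 22743 bases, so a shift in the assigned isoforms can move this length. Whether the isoforms themselves shifted was not tested, since the tables hold no isoform counts. How fully mRNA libraries capture each isoform was not tested either.

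**Figure D3:**
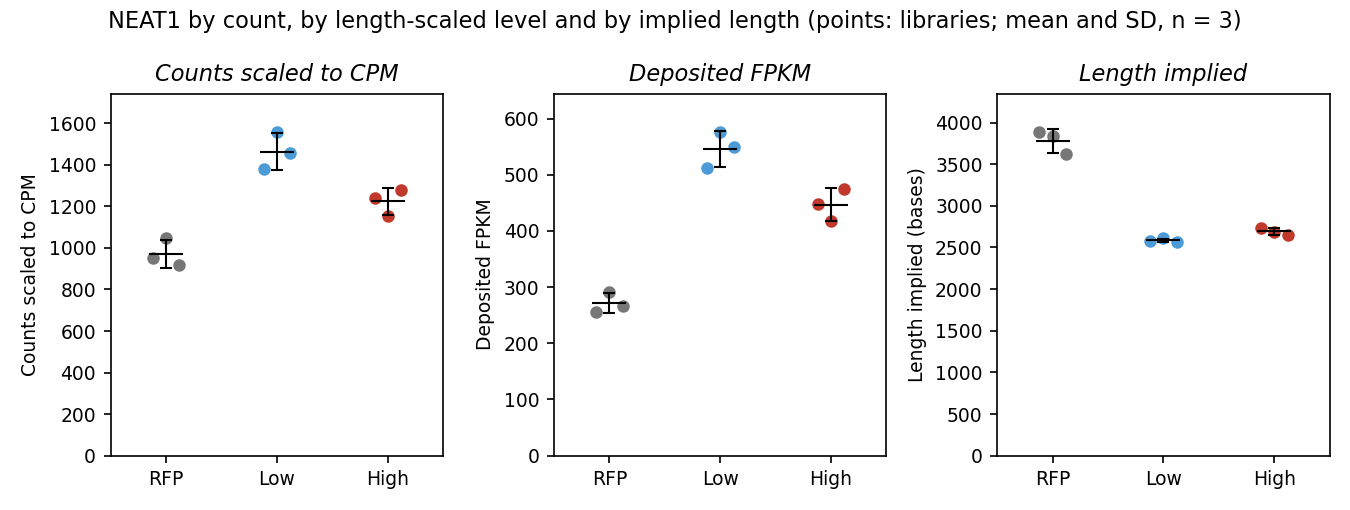
NEAT1 in each library as CPM, as deposited FPKM and as the length implied by counts and FPKM, in bases (points for libraries, mean and SD, n = 3 per group). The level is lowest in RFP on both scales, and the implied length is longest there, at 3620 to 3883 bases against 2569 to 2735 bases in the ETS1 groups.

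With the main scaling, 9 of 14 tested paraspeckle proteins rose and 3 fell in ETS1-High against RFP. In ETS1-Low against RFP 11 rose and 2 fell, with a median log2 change of 0.15 in both comparisons. Of all tested genes 37.0% rose and 37.2% fell in ETS1-High (median -0.0094), and 37.9% rose and 36.2% fell in ETS1-Low (median 0.010). Between the ETS1 groups 3 paraspeckle proteins were higher and 5 lower in ETS1-High, against 29.9% and 29.3% of all tested genes. With library totals alone the counts were 5 higher and 5 lower in ETS1-High and 6 higher and 3 lower in ETS1-Low. RBM14, a paraspeckle assembly protein, rose from 93.3 ± 4.3 CPM in RFP to 126 ± 3.9 in ETS1-Low and 123 ± 3.8 in ETS1-High (log2 change 0.43 and 0.40). PSPC1, which forms dimers with the core paraspeckle proteins, rose by 0.46 in ETS1-High and EWSR1, the fusion's 5′ partner gene, by 0.34, both on the log2 scale. Reads of the fusion transcript may count under EWSR1, and the gene counts do not separate them. NUDT21 is a polyadenylation factor that bears on NEAT1 isoform length. It fell from 291 ± 9.4 CPM in RFP to 260.3 ± 3.2 in ETS1-Low and 246 ± 2.6 in ETS1-High. Its log2 change in ETS1-High against RFP was -0.24 (SE 0.029, adjusted p 3.81e-10). The part of NUDT21 in the implied length of NEAT1 was not tested. ETS1-High was below ETS1-Low for DAZAP1 and SMARCA4, with log2 changes of -0.19 and -0.26. The genes most like NEAT1 in pattern were PLA2G6, a phospholipase gene (0.053), and ENO3, an enolase gene (0.058).

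MALAT1, NEAT1 and SNHG1 lie on the long arm of chromosome 11, where the surrounding genes were higher in their median in both ETS1 groups. The 72 other tested genes within 1 Mb of NEAT1 had median log2 changes against RFP of 0.48 (ETS1-High) and 0.45 (ETS1-Low). The 76 around MALAT1 had 0.46 and 0.45, and the 46 around SNHG1 had 0.44 and 0.59. The windows of NEAT1 and MALAT1 overlap over most of their length, so their medians are not separate observations. Near NEAT1, FRMD8 and the pseudogene FAUP4 rose in ETS1-High by 0.32 and 0.38 on the log2 scale. Against this background NEAT1 was 0.15 above its region in ETS1-Low and below it in ETS1-High by 0.14, both on the log2 scale, whereas MALAT1, with its negative log2 changes, stood below its region in both. The part of the regional shift in the change of these RNAs was not tested.

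GAS5, DANCR and SNHG1 are spliced hosts of snoRNAs, and the spliced RNAs of such hosts are commonly degraded by nonsense-mediated decay when translated. GAS5 (chr1:173858559-173868882, minus strand), which accumulates when growth arrests, had 343, 369.9 and 367 CPM in RFP, 349.6, 382 and 356 CPM in ETS1-Low and 254, 255 and 252 CPM in ETS1-High. ETS1-High was below both other groups, which overlapped. GAS5 fell in ETS1-High against RFP (log2 change -0.51 (SE 0.032, adjusted p 6.83e-19)) and against ETS1-Low (-0.52 (SE 0.032, adjusted p 9.20e-19)), in each of the 21 alternatives. The log2 change of GAS5 was 0.011 (95% interval -0.053 to 0.075, adjusted p 0.769) for ETS1-Low against RFP, but it turned and was called lower with library totals alone (-0.12, adjusted p 0.00309) and in FPKM with limma (-0.17, adjusted p 0.00386).

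DANCR (chr4:52712325-52723623, plus strand) is known for keeping progenitor cells undifferentiated. It had 83.8, 82.7 and 88.7 CPM in RFP, 151, 151 and 151 CPM in ETS1-Low and 67.8, 69.9 and 68.5 CPM in ETS1-High. The 3 groups did not overlap, and the 3 ETS1-Low libraries were close to each other. DANCR rose 1.78-fold in ETS1-Low against RFP (log2 change 0.83 (SE 0.031, adjusted p 6.68e-29)) and fell in ETS1-High against RFP (-0.31 (SE 0.033, adjusted p 7.75e-12)). ETS1-High against ETS1-Low gave -1.14 (SE 0.032, adjusted p 9.68e-34), the largest change between the ETS1 groups among the 7 tested RNAs. All 3 calls held in each of the 21 alternatives.

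Around DANCR the 11 tested genes within 1 Mb moved in the same directions in their median, at 0.56 in ETS1-Low, -0.15 in ETS1-High and -0.58 between the ETS1 groups. Over 5 Mb (40 genes) the medians were 0.0082, -0.063 and -0.046. ERVMER34-1, a gene of retroviral origin that overlaps DANCR exons on the other strand, was rare but had the same order, at 0.369 ± 0.086, 2.18 ± 0.27 and 0.186 ± 0.056 CPM (log2 change 2.55 (SE 0.24, adjusted p 1.42e-13) in ETS1-Low and -3.53 (SE 0.28, adjusted p 7.08e-16) between the ETS1 groups). USP46-DT, on the other side, did not share it (log2 change 0.57 in ETS1-Low and 0.62 in ETS1-High). The part of the surrounding genes in the DANCR result was not tested.

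SNHG1 (chr11:62851978-62855953, minus strand) hosts a run of box C/D snoRNAs and is raised in many tumours. It had 172, 179.5 and 170.4 CPM in RFP, 269, 284 and 261 CPM in ETS1-Low and 192, 185 and 189 CPM in ETS1-High. ETS1-Low was above both other groups, and the ETS1-High libraries lay just above the RFP libraries. SNHG1 rose in ETS1-Low against RFP (log2 change 0.64 (SE 0.031, adjusted p 2.70e-24)) and was lower in ETS1-High than in ETS1-Low (-0.52 (SE 0.031, adjusted p 2.19e-20)). In ETS1-High against RFP the rise was small (0.11 (SE 0.031, adjusted p 0.00108)), and the call was lost with upper-quartile factors (0.054), with library totals alone (0.010) and in FPKM (0.034). WDR74, the ribosome assembly gene beside it, rose in ETS1-Low by 0.37 on the log2 scale.

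Other snoRNA host lncRNAs moved mostly down in ETS1-High. Of 18 tested, 15 fell and 1 rose in ETS1-High against RFP (median log2 change -0.40, where that of all genes was -0.0094), and with library totals alone or in FPKM 16 fell and 0 rose. In ETS1-Low against RFP 7 rose and 5 fell (median -0.0064), a balance that turned to 3 and 10 with library totals alone. Between the ETS1 groups 12 were lower and 0 higher in ETS1-High (median -0.38). The shares of all tested genes, lower and higher, were 37.2% and 37.0% in ETS1-High against RFP. They were 36.2% and 37.9% in ETS1-Low against RFP and 29.3% and 29.9% between the ETS1 groups. SNHG12 followed the same order of groups as DANCR, at 41.8 ± 0.78, 80.3 ± 4.2 and 31.7 ± 1.4 CPM, and SNHG3 had 169 ± 6.9, 307 ± 12 and 179.8 ± 3.7 CPM. SNHG14, the long host of the imprinted chromosome 15 snoRNA clusters, fell from 138 ± 3.4 CPM to 64.7 ± 1.2 and 64.0 ± 0.38 CPM (log2 change -1.11 (SE 0.032, adjusted p 3.93e-34) in ETS1-High). SNHG6 fell by steps, at 67.5 ± 1.0, 54.2 ± 1.6 and 33.4 ± 1.9 CPM, as did EPB41L4A-AS1, at 25.8 ± 1.0, 17.3 ± 0.63 and 14.3 ± 0.94 CPM. SNHG5 had 231 ± 5.6, 247 ± 11 and 160.1 ± 2.8 CPM. These lists were drawn up with earlier results of these data known.

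**Figure D4:**
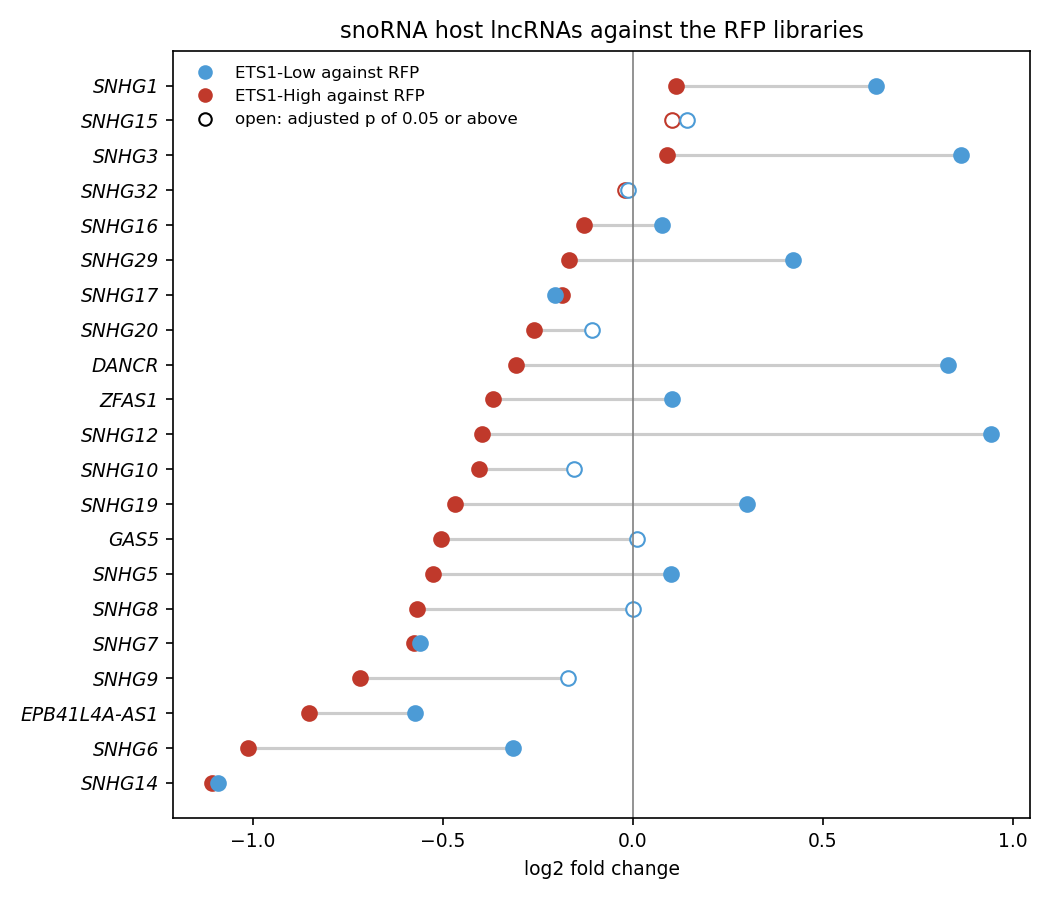
Log2 change of 21 snoRNA host lncRNAs (GAS5, DANCR, SNHG1 and 18 others) in ETS1-Low and in ETS1-High against the same RFP libraries, with open points where the adjusted p was 0.05 or above (edgeR). DANCR (0.83 and -0.31) and SNHG12 (0.94 and -0.40) lie on opposite sides of 0, whereas SNHG14 lies near -1.1 in both, and SNHG3, at 0.09 in ETS1-High, turned to -0.014 with library totals alone.

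Of the 19 snoRNAs listed as encoded in GAS5, SNHG1 and DANCR, 10 were in the table and 1, SNORD22, passed the filter, with at most 20.1 counts in a library and no call in any comparison (log2 change 0.77 (95% interval -0.47 to 2.00, adjusted p 0.25) in ETS1-High). The mRNA libraries therefore do not measure the snoRNAs beside their hosts. Of 10 tested factors of nonsense-mediated decay, 5 rose and 3 fell in ETS1-High against RFP and 5 rose and 4 fell in ETS1-Low against RFP. The shares of all tested genes were 37.0% higher and 37.2% lower in ETS1-High and 37.9% and 36.2% in ETS1-Low. With 10 factors nothing particular to the pathway is read from the counts. SMG9, a regulator of the SMG1 kinase, rose from 30.5 ± 0.74 CPM to 55.6 ± 2.6 and 52.1 ± 2.0 CPM, and the helicase UPF1 from 103 ± 2.4 to 127 ± 2.8 and 138 ± 0.78 CPM. UPF3A and SMG6 rose in ETS1-High by 0.44 and 0.26 on the log2 scale. UPF3B, which links the pathway to the exon junction complex, was lowest in ETS1-Low, at 43.8 ± 1.6 CPM against 75.2 ± 1.5 in RFP and 67.0 ± 2.8 in ETS1-High, and SMG5 was lower in ETS1-High than in ETS1-Low (log2 change -0.18).

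The library kit keeps strand, but the use of strand in counting is not given in the sources used here, so reads of genes that overlap on opposite strands, such as DANCR and ERVMER34-1 or MALAT1 and its antisense RNA TALAM1, may not be fully separated, and this holds for GAS5 too. The genes most like GAS5 in pattern were NSMCE2 (0.036) and MRPL13 (0.042), those most like DANCR were SMIM3 (0.058) and UBXN8 (0.077), and those most like SNHG1 were GSTO1 (0.031) and E2F2 (0.040).

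Per length, GAS5 had the highest level in RFP, at 676 ± 31 FPKM, followed by NEAT1 at 271 ± 18, SNHG1 at 211 ± 6.7, DANCR at 132 ± 3.8 and MALAT1 at 117 ± 16 FPKM (SD, n = 3). HOTAIR at 10.6 ± 0.22 and EWSAT1 at 10.4 ± 0.33 FPKM were far lower, and HOTTIP was listed at 0.01 FPKM in 1 library and at 0 in the others. Neighbours in this order overlapped between libraries for DANCR and MALAT1 and for HOTAIR and EWSAT1. All these levels come from mRNA libraries, and how fully such libraries capture each RNA was not tested. In ETS1-Low the order of the 5 abundant RNAs was the same, but GAS5 at 599 ± 30.3 and NEAT1 at 545 ± 32 FPKM came close, with the lowest GAS5 library at 578 and the highest NEAT1 library at 575 FPKM. In ETS1-High GAS5 (448 ± 2.6) and NEAT1 (447 ± 29 FPKM) overlapped, as did DANCR (98.4 ± 0.92) and MALAT1 (89.8 ± 7.8 FPKM). EWSAT1 stood above HOTAIR in both ETS1 groups without overlap, at 22.3 ± 0.96 against 6.78 ± 0.51 FPKM in ETS1-Low and 20.8 ± 0.69 against 8.07 ± 0.62 FPKM in ETS1-High.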

How the data were processed

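The authors deposited RSEM expected counts per gene, which are estimates that divide shared reads, and RSEM FPKM values, which account for transcript length and depth, per the file headers. The submitters' processing notes name the build GRCh38 (hg38), cutadapt 4.4, STAR 2.7.3, featureCounts, Subread 2.0.3 and limma 3.38.3, with no role or order. The annotation release is not given in the sources used here. Libraries were grouped by title, and all table columns were matched by name.

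Expected counts were rounded and tested with edgeR 4.0.16 (R 4.3.3; TMM, filterByExpr by group, robust quasi-likelihood fit of all 9 libraries). P-values were adjusted by Benjamini-Hochberg over 17235 genes and called under 0.05. The test was also run on simulated counts, with far fewer changed genes than were called here and as many raised as lowered. That run therefore cannot speak to the scaling or the calls in these data. CPM use TMM-scaled totals of the genes that passed the filter, which ran from 39470463 to 46636394 counts before scaling. Between 9.00% and 10.3% of values per library were not whole. Replicate pairs had a chi-square of 2.66 to 5.19 per gene (genes of 50 counts or more), so each library counted once. No label says that replicates came from separate cultures, so p-values measure the spread between libraries, which may be technical. Positions come from GENCODE v44 on GRCh38 and windows from RefSeq GRCh38.p14. Alternatives were other scalings and filters, DESeq2 1.42.0, limma-voom and limma 3.58.1 on log2(FPKM + 1) or log2(FPKM + 0.1), a block for the replicate number, fits of 2 groups, each library left out, and a window of 5 Mb. Scaling by library totals alone was chosen after seeing the data.

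The members and the gene lists were chosen with earlier results of these data known. Singly named genes were the 8 RNAs and ETS1; from each list up to 4 of lowest p in ETS1-High against RFP and up to 2 in ETS1-High against ETS1-Low; the genes most alike in pattern (mean count of at least 100; log2(CPM + 0.5)); and the nearest tested neighbours. HNRNPK was added after its values were seen. Some genes that this rule or a list names are not reported here.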

Additional observations from a re-analysis of the deposited data

Results flagged for a closer look

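For 6 of the 7 tested lncRNAs the 2 ETS1 groups differed in their change against RFP, as tested by ETS1-High against ETS1-Low in the same edgeR fit, which is why they stand here. The same comparison called 59.2% of all 17235 tested genes. DANCR differed most, with a log2 fold change of -1.14 (adjusted p 9.68e-34), and it lay on opposite sides of RFP in the 2 groups. SNHG1 (-0.52), GAS5 (-0.52) and NEAT1 (-0.26) were lower in ETS1-High, HOTAIR (0.32) was higher, and EWSAT1 (-0.12) was lower by a margin that 8 of 21 alternatives did not call.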

How the results depend on the processing

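Of 441 alternative values of the 7 tested RNAs (21 alternatives, 3 comparisons), 411 kept their direction and their side of the threshold. The number of RNAs called ran from 6 to 7 in ETS1-High against RFP, 5 to 7 in ETS1-Low against RFP and 5 to 6 in ETS1-High against ETS1-Low. Leaving out 1 library gave 6 to 7, 5 to 5 and 5 to 6, and 12392 to 12971, 12401 to 12977 and 9504 to 10337 genes called among all. Library totals alone moved the median of all genes to -0.11 and -0.12 in the comparisons with RFP. In ETS1-High against RFP, these signs turned with library totals alone: E2F2 -0.00082, SMARCA4 -0.086, SMG5 -0.087, SNHG3 -0.014, SON -0.10. In ETS1-Low against RFP, these signs turned with library totals alone: GAS5 -0.12, ANP32A -0.051, HNRNPK -0.027, SMG6 -0.081, SNHG5 -0.032. In ETS1-High against RFP, these signs turned in limma on log2(FPKM + 1), with or without the filter: E2F2 -0.011, SMG5 -0.11, SNHG3 -0.041, WDR74 -0.0058. In ETS1-Low against RFP, these signs turned in limma on log2(FPKM + 1), with or without the filter: GAS5 -0.17, ANP32A -0.057, HNRNPK -0.067. In ETS1-High against RFP, these signs turned in limma on log2(FPKM + 0.1): E2F2 -0.011, SMG5 -0.11, SNHG3 -0.041, WDR74 -0.0060. In ETS1-Low against RFP, these signs turned in limma on log2(FPKM + 0.1): GAS5 -0.17, ANP32A -0.057, HNRNPK -0.067. The causes were not tested. With a window of 5 Mb the regional medians moved by more than the spread between libraries to: in ETS1-High against RFP HOTAIR -0.016, HOTTIP -0.21, MALAT1 0.42, NEAT1 0.42, GAS5 -0.18, DANCR -0.063, SNHG1 0.42; in ETS1-Low against RFP HOTAIR 0.026, HOTTIP -0.28, MALAT1 0.47, GAS5 -0.21, DANCR 0.0082, SNHG1 0.46; in ETS1-High against ETS1-Low EWSAT1 -0.35, HOTAIR -0.011, HOTTIP 0.040, GAS5 0.10, DANCR -0.046, SNHG1 -0.041.

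Same-numbered libraries did not deviate together (correlations of -0.029 to 0.028 over 9 pairs), so the numbers do not pair the samples. With the replicate number as a block, 6, 5 and 6 RNAs and 12701, 12729 and 10122 genes were called, and MALAT1 in ETS1-High against RFP was -0.29 (adjusted p 0.0688). With 3 libraries a group, the depth limits HOTTIP but none of the 7 RNAs tested, which had at least 423 counts in each library. The snoRNAs, as said above, are not measured in these mRNA libraries beside their hosts.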

Other observations

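Among 20 other well-studied lncRNAs, 15 were tested, of which 7 rose and 4 fell in ETS1-High against RFP and 6 rose and 6 fell in ETS1-Low against RFP. Of all tested genes 37.0% rose and 37.2% fell in ETS1-High, and 37.9% rose and 36.2% fell in ETS1-Low. FENDRR, a lncRNA of lateral mesoderm, was near 0 in RFP (0 to 4 counts) and reached 1.73 ± 0.12 CPM (ETS1-Low) and 9.24 ± 0.61 CPM (ETS1-High; SD, n = 3), with a log2 change of 2.41 (SE 0.12, adjusted p 6.05e-23) between the ETS1 groups by edgeR. MEG3, an imprinted RNA of chromosome 14, fell from 8.96 ± 0.89 CPM in RFP to 1.67 ± 0.094 in ETS1-Low and 0.362 ± 0.061 in ETS1-High (log2 fold change -4.61 (SE 0.15, adjusted p 1.82e-31) in ETS1-High against RFP). KCNQ1OT1, an imprinted antisense RNA, rose in both ETS1 groups, from 4.23 ± 0.34 to 9.27 ± 0.56 and 8.45 ± 0.53 CPM. MIAT was low in ETS1-Low, at 3.44 ± 0.18 CPM against 13.7 ± 1.0 in RFP and 12.2 ± 0.57 in ETS1-High. H19 had 1 to 2 counts in the ETS1-Low libraries and 1.16 ± 0.18 CPM in ETS1-High, which is at least 15.9-fold higher when ETS1-Low is set at a floor of 3 counts per library.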
